A study of Mus musculus with 36 samples.

Results

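The replication-dependent histone genes are the clustered genes that supply the H1, H2A, H2B, H3 and H4 proteins of newly made chromatin. Members were chosen by name alone: mouse gene symbols that start with Hist1h, Hist2h, Hist3h or Hist4h, without pseudogene symbols, whose identifier is listed in all 6 count tables of the series. The rule found 69 symbols, of which 67 are listed in every table, out of 51413 genes that all tables share. Hist1h2bh and Hist1h2bm are absent from 1 table and are not members. The 67 members comprise 6 H1, 20 H2A, 16 H2B, 12 H3 and 13 H4 genes, 54 of them on chromosome 13, 10 on chromosome 3, 2 on chromosome 11 and 1 on chromosome 6. Among them are 3 testis variants, namely Hist1h1t (H1t), Hist1h2aa (TH2A) and Hist1h2ba (TH2B), which leaves 64 others. RefSeq lists Hist1h2aj and Hist1h2al as pseudogenes under other names, and both were kept because the rule uses the symbol.

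Histone genes of this kind are transcribed mainly in S phase, when a cell copies its DNA and needs new nucleosomes. Their mRNAs are unusual in that they end in a short stem-loop, bound by the protein SLBP, in place of a poly(A) tail, and the transcription coactivator NPAT switches the clusters on. Some members are also known as longer, polyadenylated mRNAs in cells that have stopped dividing. In late spermatogenesis most histones are removed from the chromatin and replaced by transition proteins and protamines, whereas a morula is an early embryo of rapidly dividing blastomeres.

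Counts from 12 libraries are used here, all labelled as wildtype C57BL/6 mice, which the study's methods give as C57BL/6N. Cauda spermatozoa, mature sperm from the tail end of the epididymis, were obtained by swim-up from males fed for 2 weeks on a high-fat diet (HFD) or a low-fat diet (LFD), with 3 libraries per diet. Morulae came from IVF of unexposed oocytes with sperm of such HFD-fed or LFD-fed males, again with 3 libraries per diet, so that the morulae themselves never met the diet. The male donors of that IVF were 8 weeks old. The libraries are named after the letter and first digit of their columns: h1, h3 and h4 (HFD) and l1, l2 and l4 (LFD) for sperm, and MH5, MH6 and MH7 (HFD fathers) and ML1, ML2 and ML3 (LFD fathers) for morula. Nothing states how many males or embryos went into a library, so p-values measure only the spread between these libraries. Both kinds were made with the Nextera kit, in single-ended reads for sperm and in paired-ended reads for morula. Whether cDNA was primed from poly(A) tails is not given in the sources used here, and its part in the levels below was not tested.

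The sperm libraries held 2560219 to 4062321 counts and the morula libraries 11471251 to 12153141. Counts on genes encoded in mtDNA took 78.1 to 84.3% of the HFD sperm libraries, 43.5 to 64.6% of the LFD sperm libraries and 22.8 to 26.9% of the morula libraries. This left 471297 to 889679 nuclear counts in HFD sperm, 1066801 to 1447186 in LFD sperm and 8557683 to 9372734 in morula. Levels set side by side between libraries are therefore also given as nuclear CPM, that is, scaled to the nuclear counts of the library instead of all its counts (counts per 1000000, CPM). Where a gene is at 0, a true value of up to 3 counts is possible, equal to 0.738 to 1.17 CPM in sperm and 0.247 to 0.262 CPM in morula, for counting error only. Not all marker genes separated the tissues. Prm1, a protamine, had 256 to 661 counts in the sperm libraries and 0 to 6 in the morula libraries. Pou5f1, a transcription factor of the early embryo, had 0 counts in all sperm libraries and 516 to 702 in the morula libraries. Of the 8 morula markers, however, 5 had a count in sperm, among them Gata3 and Krt18. Their sum in sperm was 149 to 318 nuclear CPM on HFD and 324 to 482 on LFD. In morula it was 388 to 477 with HFD fathers and 438 to 469 with LFD fathers, so the tissues overlap. Markers of epididymal epithelium were also present in sperm: 6 of 6 had a count, and their sum was 9550 to 17400 nuclear CPM on HFD and 11460 to 59360 on LFD. Markers of leukocytes summed to 226 to 363 nuclear CPM on HFD and 161 to 223 on LFD, which do not overlap.

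The stem-loop was searched in the annotated transcripts (GENCODE, GRCm38) as a run of 16 bases: GG, 3 pyrimidines and T, a loop of 4 bases rich in T, then A, 3 purines and CC. It was found in 44 of the 67 members (65.7%) and in 22 of 21834 other protein-coding genes (0.101%). The commonest form was shared by 24 members. The stem-loop is printed here with its flanks for members on which the results turn, chosen after their values were seen, 5′ to 3′ on the strand of the gene, with the stem-loop in capitals.
Hist1h1c, chr13:23739507-23739534, plus strand: caaaaGGCTCTTTTCAGAGCCaccactc
Hist1h1e, chr13:23621775-23621802, minus strand: ccaaaGGCTCTTTTCAGAGCCacccaca
Hist1h4d, chr13:23581945-23581972, plus strand: ccaaaGGCCCTTTTCAGGGCCactacct
Hist1h2bf, chr13:23573758-23573785, minus strand: ccaaaGGCTCTTTTCAGAGCCacctacc
Hist3h2a, chr11:58955167-58955194, plus strand: ccaaaGGCTCTTTTCAGAGCCacccaca
Hist1h1t, chr13:23696520-23696547, plus strand: ccaaaGGCTCTTTTAAGAGCCacttaca
Each of these lies in the 3′UTR. The form of Hist1h1t differs from the commonest one in its loop, and Hist1h4d carries the form found in 7 members, all of class H4. The gene model ran on for more than 100 bases past the stem-loop in 22 members, for example 840 bases in Hist1h1c, 1153 in Hist1h1e, 770 in Hist1h4d and 1643 in Hist3h2a, against 29 in Hist1h2bf. The models of 11 members hold coding sequence only, so that no stem-loop could be found in them; Hist1h2aa, Hist1h2ba and Hist1h2bl are among these. A poly(A) signal hexamer within the last 40 bases of a transcript was present in 17 members (25.4%) and in 76.2% of other protein-coding genes. Hist2h2be, on chr3:96221119-96223738 (plus strand), has such a hexamer and no stem-loop match in its model.

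Promoters from RefSeq (GRCm38.p6, 250 bases before to 50 after the start) were matched for 60 members. The octamer ATTTGCAT, on either strand, was present in 7 of 18 H2A promoters and 6 of 14 H2B promoters and in none of the 6 H1, 10 H3 and 12 H4 promoters, against 1.97% of 27025 promoters of all genes. CCAAT, on either strand, was present in every H1, H2A, H2B and H3 promoter matched and in 3 of 12 H4 promoters, against 41.1% of all promoters. TATAAA, on the strand of the gene, was present in 30 of 60 member promoters (50%) against 9.77% of all promoters. An octamer and a CCAAT match can share bases, and a match describes the sequence only. Promoters are printed for the testis variant Hist1h2aa, whose window overlaps that of its divergent neighbour Hist1h2ba without reaching the start of that gene, for the testis variant Hist1h1t, and for Hist1h4d, the member with the highest median CPM in morula, not scaled by length. Capitals mark the octamer, CCAAT and TATAAA.
Hist1h2aa, chr13:23934187-23934486, plus strand: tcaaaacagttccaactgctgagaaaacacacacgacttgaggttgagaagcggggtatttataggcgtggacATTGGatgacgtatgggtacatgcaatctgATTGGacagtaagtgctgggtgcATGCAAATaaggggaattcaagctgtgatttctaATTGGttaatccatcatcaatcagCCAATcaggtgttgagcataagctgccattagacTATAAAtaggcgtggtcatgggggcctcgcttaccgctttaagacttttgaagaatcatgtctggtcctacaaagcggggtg
Hist1h1t, chr13:23695561-23695860, plus strand: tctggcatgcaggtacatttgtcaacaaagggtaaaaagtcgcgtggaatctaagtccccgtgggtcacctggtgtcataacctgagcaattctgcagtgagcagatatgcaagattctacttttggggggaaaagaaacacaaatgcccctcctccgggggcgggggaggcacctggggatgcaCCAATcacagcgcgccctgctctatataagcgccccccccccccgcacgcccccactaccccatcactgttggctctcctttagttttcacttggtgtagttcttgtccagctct
Hist1h4d, chr13:23581318-23581617, plus strand: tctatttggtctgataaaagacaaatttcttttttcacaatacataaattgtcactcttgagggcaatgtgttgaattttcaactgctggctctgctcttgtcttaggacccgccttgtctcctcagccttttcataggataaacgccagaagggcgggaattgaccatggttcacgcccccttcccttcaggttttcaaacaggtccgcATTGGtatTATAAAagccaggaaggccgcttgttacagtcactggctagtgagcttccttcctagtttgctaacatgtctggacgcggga
The Hist1h2aa window holds all 3 motifs, that of Hist1h1t holds CCAAT only, and that of Hist1h4d holds CCAAT (read as ATTGG) and TATAAA.

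Near-identical copies limit what a count can say about a single member. Of all stretches of 75 bases, the length of a sequencing read, less than 50% were free of a match in any other annotated gene for 32 of the 67 members. For 5 members (Hist2h2aa1, Hist2h2aa2, Hist2h2bb, Hist2h3b and Hist2h3c1) no such stretch was unique, and these 5 had 0 counts in all 12 libraries. All stretches were unique in Hist2h2be, Hist2h4, Hist1h1a, Hist1h1b and Hist1h1t. Exon bases were shared with another annotated gene in 26 members, among them 20 of 20 H2A genes, most of which overlap a predicted miRNA gene of the Gm series. Hist1h1e and Hist1h2be share bases with each other on the same strand, and Hist3h2a shares bases with Trim17, so their counts are uncertain. How reads with several matches or in shared bases were treated is not given in the sources used here.

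More members were seen in morula than in sperm. In sperm 34 of 67 members had a count in some library, and 5 had one in all 6 libraries. In morula 60 members had a count in some library and 41 in all 6. Of all genes, 26903 of 54838 had a count in some sperm library and 29785 of 55487 in some morula library. All 34 members seen in sperm were seen in morula too, 26 were seen in morula alone, and 7 were at 0 everywhere, namely the 5 without a unique stretch, Hist1h2af and Hist1h2aj. A member at 0 in sperm was not detectable at this depth, which was lower than in morula. In all, 1469 counts fell on members in sperm and 9063 in morula. Of the members seen in sperm, 11 had 10 or more counts over the 6 libraries and 23 had 1 to 9.

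**Figure D1:**
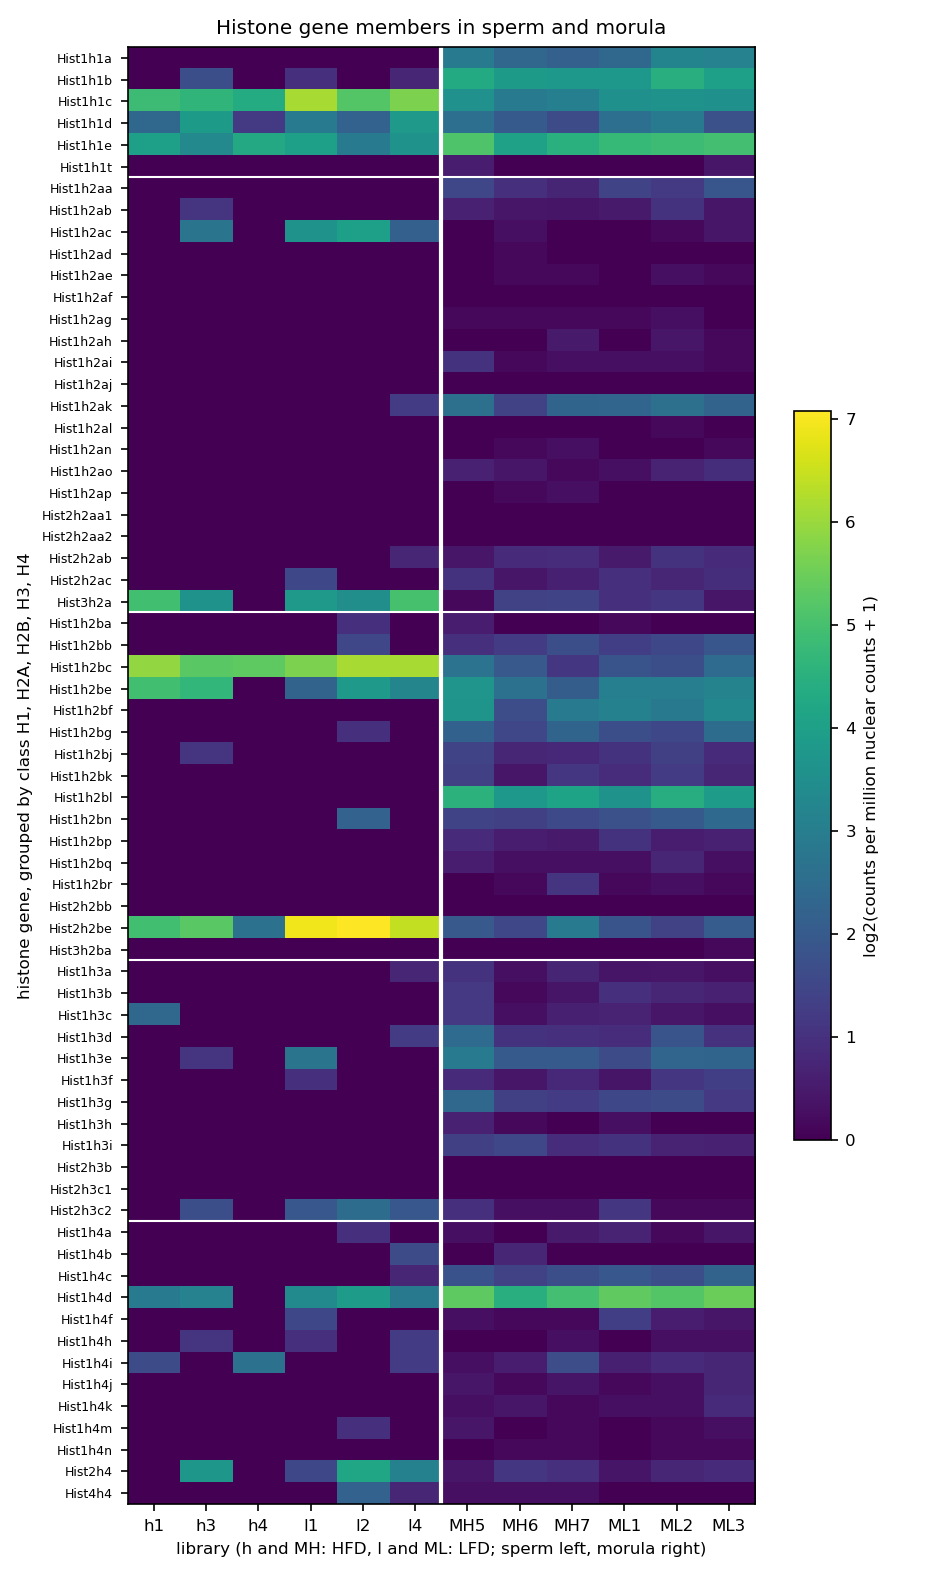
Level of the 67 members (vertical axis, grouped by histone class) in the 6 sperm and 6 morula libraries (horizontal axis), as log2 of nuclear CPM plus 1 (colour). Sperm signal sits in few members, above all Hist2h2be, Hist1h2bc and Hist1h1c, whereas 41 members have a count in every morula library.

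In sperm the 5 members with the highest median level were Hist2h2be (26.0 CPM of the library total), Hist1h2bc (13.9 CPM), Hist1h1c (8.81 CPM), Hist1h2be (4.63 CPM) and Hist3h2a (4.14 CPM). By median nuclear CPM the order of Hist2h2be (61.04), Hist1h2bc (55.0) and Hist1h1c (31.4) was the same, followed by Hist1h1e (12.9), Hist3h2a (12.2) and Hist1h2be (10.6). These medians pool the diets: Hist2h2be had a mean of 24.0 ± 16.7 nuclear CPM on HFD and 113 ± 25.1 on LFD (SD, n = 3). Hist1h2bc had 45.1 ± 12.4 and 63.6 ± 11.3. By these means Hist2h2be was the higher of the pair on LFD and the lower on HFD, although both were at 37.1 in h3. Hist2h2be and Hist1h2bc encode H2B proteins, and Hist1h1c encodes the linker histone H1.2, which binds DNA between nucleosomes. Hist2h2be, Hist1h2bc and Hist1h1c together held 68.2% of all member counts in sperm, and 51.2 to 76.0% in single libraries. Per kilobase of the gene model, the order of Hist2h2be and Hist1h2bc was the other way, with a median of 12.1 CPM per kilobase for Hist1h2bc (7.03 to 34.1) and 9.94 for Hist2h2be (0.415 to 18.3), and these ranges overlap. Hist1h1c followed with 5.65 CPM per kilobase (2.61 to 18.03), and its range overlaps both.

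In morula the 5 highest members were Hist1h4d (27.3 CPM of the library total), Hist1h1e (20.4 CPM), Hist1h2bl (11.4 CPM), Hist1h1b (10.6 CPM) and Hist1h1c (7.95 CPM). Hist1h1e and Hist1h1b encode the linker histones H1.4 and H1.5, and Hist1h4d a core histone H4. Hist1h4d, Hist1h1e and Hist1h2bl held 45.0% of the member counts in morula, and 42.5 to 46.9% in single libraries. Per kilobase, the highest were Hist1h2bl (29.9 CPM per kilobase, 22.9 to 43.0), Hist1h4d (24.0, 13.7 to 28.6), Hist1h1b (14.2, 12.96 to 20.9), Hist1h2bf (11.8, 3.55 to 18.4) and Hist1h1e (10.6, 5.98 to 12.9). Each of these ranges overlaps that of its neighbour in the order. Hist1h2bl and Hist1h2bf had 0 counts in all 6 sperm libraries, although Hist1h2bl had 106 to 193 counts in each morula library and Hist1h2bf 19 to 100. In Hist1h2bl only 26.7% of stretches of read length are unique.

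Each histone class was also described by its share of the member counts of a library. H2B genes took 50 to 66.8% of member counts in the sperm libraries and 24.9 to 30.8% in the morula libraries. H1 genes took 13.5 to 44.1% in sperm and 31.7 to 39.7% in morula, which overlap. H4 genes took 4.08 to 11.2% in sperm and 19.9 to 27.9% in morula. H3 genes took 0 to 2.96% in sperm and 4.89 to 10.3% in morula. H2A genes, which make up 20 of the 67 members, took 0 to 14.3% in sperm and 4.94 to 6.53% in morula. The ranges of H2B, H3 and H4 thus did not overlap between sperm and morula, and those of H1 and H2A did. Per kilobase of gene model the H2B ranges remained apart (48.6 to 65.5% in sperm, 36.2 to 43.9% in morula), whereas those of H3 (0 to 5.497% and 5.25 to 11.7%) and H4 (6.84 to 15.5% and 14.9 to 23.3%) overlapped. Layout of the reads and the kind of cell cannot be told apart in these values, and no test was made on them.

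**Figure D2:**
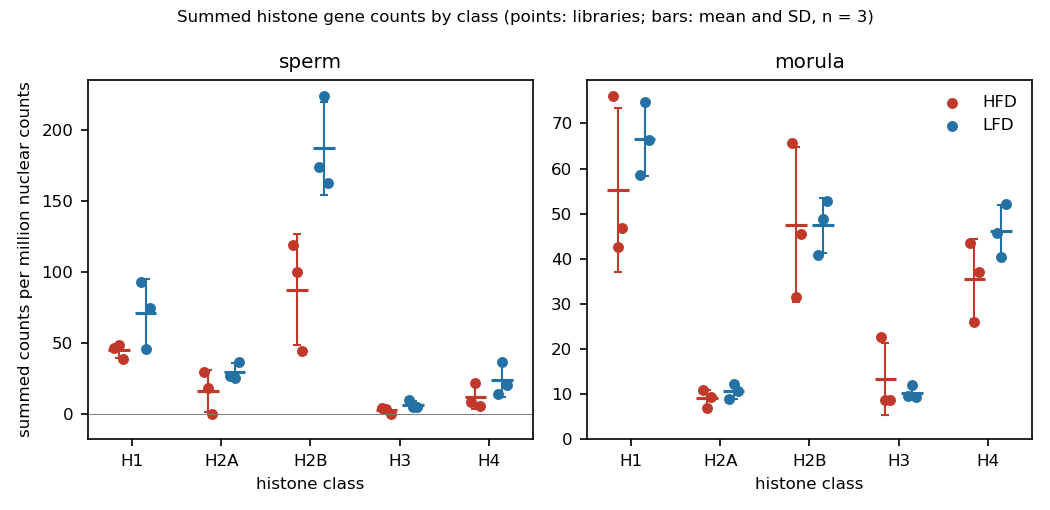
Summed nuclear CPM (vertical axis) for each histone class (horizontal axis) in sperm (left) and morula (right). Points are single libraries, coloured by the diet of the males, and bars give the mean and SD of 3 libraries; the vertical scales of the panels differ. By the mean, H2B is the highest class in sperm on both diets and H1 in morula.

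Most member counts in sperm fell on genes with long models. At a limit of 1000 bases, chosen after the values were seen, 17 members have a longer model and 50 a shorter one. The 17 took 94.1 to 97.2% of member counts in the sperm libraries and 52.5 to 59.6% in the morula libraries. Since a longer transcript gives more reads, the share was also taken of counts per kilobase, where it was 89.0 to 92.2% in sperm and 26.4 to 32.9% in morula. In both ways the 6 sperm libraries lay above the 6 morula libraries. Of the 50 members with a shorter model, 20 had a count in sperm, with 48 counts in all, and 44 had one in morula, with 4111 counts. Members whose model ends within 100 bases of the stem-loop held 0 to 2.04% of member counts in sperm and 8.23 to 12.5% in morula. Those whose model runs over 100 bases past it held 37.0 to 58.2% in sperm and 54.8 to 61.4% in morula, and were thus not higher in sperm. The 23 members without a stem-loop match, among them Hist2h2be and Hist1h2bc, held 40 to 62.15% in sperm and 26.9 to 37.0% in morula. Per kilobase these shares were 45.1 to 61.5% and 42.6 to 55.2%, which overlap. The 11 members with coding-only models, which are part of these 23, held 0 to 1.38% and 12.9 to 16.7% of counts. Members with under 50% unique stretches, which are mostly short, held 0 to 2.94% in sperm and 18.7 to 24.4% in morula, and the part of this in the difference was not tested.

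**Figure D3:**
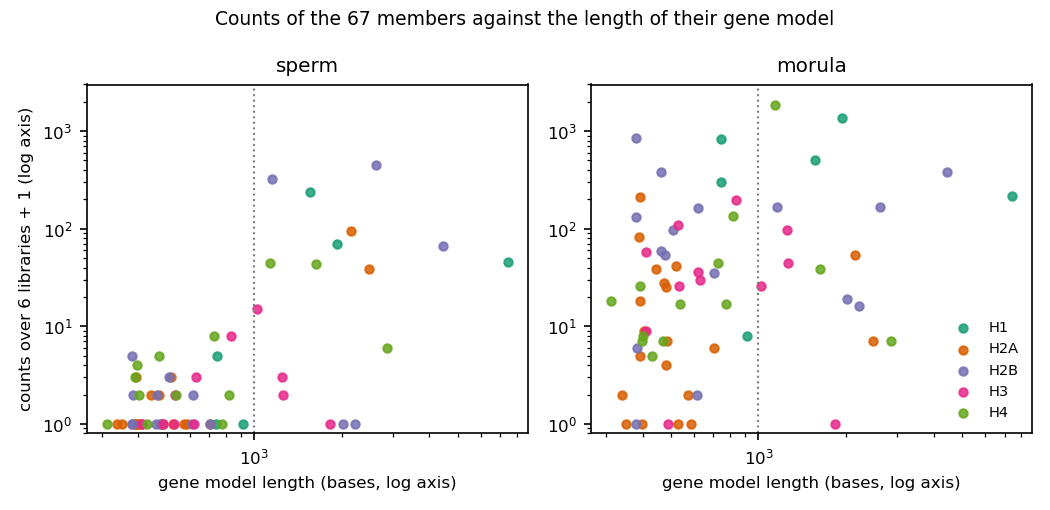
Counts of each member summed over 6 libraries plus 1 (vertical log axis) against the length of its gene model in bases (horizontal log axis), in sperm (left) and morula (right), coloured by histone class. The dotted line marks 1000 bases; in sperm no member left of it exceeds 7 counts, whereas in morula a member left of it, Hist1h2bl, reaches 856.

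The testis variants were at or near 0 in sperm. Hist1h1t, a linker histone of pachytene spermatocytes and round spermatids, and Hist1h2aa had 0 counts in all 6 sperm libraries, and Hist1h2ba, the H2B of testis chromatin, had 1 count, in l2. In the same libraries H1fnt and Hils1, linker histones of elongating spermatids encoded outside the clusters, had 33, 36, 111, 87, 33 and 33 counts and 16, 17, 26, 57, 14 and 7 counts in h1, h3, h4, l1, l2 and l4. Both had 0 counts in every morula library. In morula Hist1h2aa, a variant known to be held in oocytes as well as in testis, had 16, 8 and 6 counts in MH5, MH6 and MH7 and 16, 11 and 24 in ML1, ML2 and ML3. Hist1h1t had 4 counts in MH5, 3 in ML3 and 0 in the other libraries, and Hist1h2ba had 4 in MH5, 1 in ML1 and 0 in the others. The 3 testis variants together made up 0 to 0.276% of member counts in sperm and 0.439 to 1.61% in morula. The other 64 members held the remainder.

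The first diet comparison asks whether 2 weeks of HFD altered these mRNAs in sperm. No member passed the threshold. The edgeR quasi-likelihood test with TMM scaling was fitted over all genes, and 8643 of them passed the filter on low counts, with Benjamini-Hochberg adjustment over these. Only 7 of the 67 members passed the filter, and 0 of the 7 were called, as were 0% of all genes tested (1122 genes had an unadjusted p under 0.05; DESeq2 called 295 genes and 0 members, limma-voom 0 and 0). Of the 7, 4 had a fitted value above 0 and 3 below, where 52.9% of all genes were below 0. Their median log2 fold change was 0.00, beside a median of -0.07 for all genes. With limma-voom 4 of the 7 were below 0 and the median was -0.46, beside -0.24 for all genes. Summed over all 67 members, the level was 208, 191 and 88.1 nuclear CPM in h1, h3 and h4 (162 ± 64.9, mean ± SD, n = 3) and 317, 336 and 299 in l1, l2 and l4 (317 ± 18.3, n = 3). The diets did not overlap in this sum, which is scaled to nuclear counts and not by TMM, and no test was made on it. The separation was not particular to the members. HFD was also lower without overlap for replacement histones encoded outside the clusters (179 to 359 nuclear CPM on HFD and 388 to 510 on LFD). Factors that make or degrade histone mRNA (232 to 588 and 620 to 752) were apart in the same way. So were histone chaperones (429 to 795 and 1273 to 1631). S-phase genes (146 to 333 and 274 to 346) and germline histones outside the clusters (66.3 to 204 and 33.9 to 154) overlapped.

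Hist2h2be stood lowest among them. It had 14, 33 and 4 counts in h1, h3 and h4 and 128, 144 and 123 in l1, l2 and l4. After TMM scaling these were 9.04, 11.3 and 2.46 CPM on HFD and 28.9, 30.3 and 18.6 CPM on LFD, so that every HFD library was below every LFD library. The log2 fold change of HFD over LFD was -1.74 (SE 0.64, 95% interval -3.11 to -0.37), with an unadjusted p of 0.0164 and an adjusted p of 0.282 by edgeR. It was the single member of 7 with an unadjusted p under 0.05 and a lower value on HFD, which held for 4.65% of all genes, and the single one whose diets did not overlap with HFD lower, which held for 12.3% of all genes. Without single libraries the fold change ranged from -2.19 to -1.34, and no library decided its sign. Summed sperm markers (Prm1, Prm2, Tnp1 and 6 others) were 25570 to 51690 nuclear CPM on HFD and 7598 to 27350 on LFD, and the epididymal markers given above were lower on HFD in range, although both sums overlap between diets. Of the epididymal markers 4 were tested, with 3 below 0 and 1 above (median -0.72). The one above 0 was Cst8, at 3.61 (unadjusted p = 0.0197, adjusted p = 0.287, edgeR). Of the sperm markers 7 of 7 tested had a fitted value above 0 (median 1.22), and 3 had no overlap of the diets. Of the leukocyte markers 4 of 4 tested were above 0 (median 1.30), and 3 had no overlap. HFD was the higher diet in these sperm and leukocyte markers, and 0 were called by edgeR. Of all 8643 genes tested, 4070 were above 0 and 702 had no overlap with HFD higher. The part of these markers in the Hist2h2be difference was not tested. In bulk samples fewer cells of a type and less RNA per cell cannot be told apart.

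Hist1h2be and Hist1h1e had the largest fitted values above 0. Hist1h2be had 14, 22 and 0 counts on HFD and 4, 14 and 12 on LFD, with a log2 fold change of 1.54 (SE 1.13, adjusted p = 0.606 by edgeR). Hist1h1e had 7, 8 and 14 counts on HFD and 16, 7 and 16 on LFD, with a log2 fold change of 1.06 (SE 0.91, adjusted p = 0.677). The diets overlap in both, h4 is at 0 for Hist1h2be and highest for Hist1h1e after scaling, and the models of these genes share bases. Hist1h2bc, the next, had 28, 33 and 30 counts on HFD and 54, 76 and 101 on LFD, with a log2 fold change of 0.13 (95% interval -1.07 to 1.33).

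Among the values below 0, Hist1h4d followed Hist2h2be with -0.56 (SE 1.09, adjusted p = 0.879) and 3, 7 and 0 counts on HFD against 10, 15 and 9 on LFD. Its value was -0.04 without h4 and -1.22 without h3. Hist1h1c had 13, 21 and 15 counts on HFD and 75, 38 and 72 on LFD, which gave a log2 fold change of -0.53 (95% interval -1.94 to 0.87). Hist3h2a lay at 0.00 with the widest interval, and 14, 10 and 0 counts on HFD against 14, 11 and 45 on LFD. The choice of scaling bore on these directions. In sperm the TMM factors were 0.442 to 0.716 on HFD and 1.52 to 2.58 on LFD, so they were split by diet. In morula they were 0.962 to 1.037. With library totals in place of TMM, 7 of 7 members were lower on HFD, as were 93.3% of all genes, and 2 of 7 were called lower, Hist2h2be and Hist1h1c, as were 37.8% of all genes, whose median was then -1.82. The remaining 60 members did not pass the filter and were not tested.

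**Figure D4:**
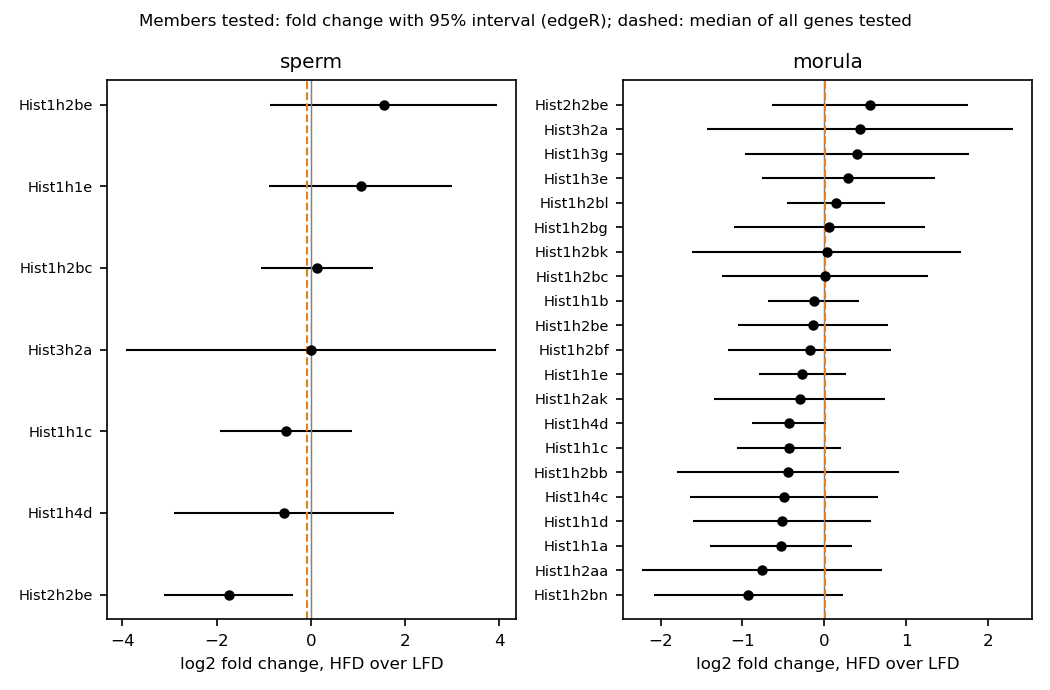
Log2 fold change of HFD over LFD (horizontal axis) with its 95% interval for the 7 members tested in sperm (left) and the 21 tested in morula (right), from edgeR. The dashed line is the median of all genes tested; Hist2h2be in sperm is the one member whose interval does not reach 0, and its adjusted p is 0.282.

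The other comparison asks whether HFD of the fathers altered the same mRNAs in morulae. Here 21 of the 67 members were among the 13447 genes tested, and again no member passed the threshold: 0 of 21 were called, with 0% of all genes tested (858 genes had an unadjusted p under 0.05; DESeq2 called 18 genes and 0 members, limma-voom 0 and 0). At an unadjusted p under 0.05 stood 0 of 21 members and 6.38% of all genes. The fitted value was above 0 for 8 members and below 0 for 13 (47.8% of all genes were below 0), with a median log2 fold change of -0.18 beside 0.01 for all genes. For Hist1h1e the 95% interval was -0.80 to 0.26 here and -0.89 to 3.00 in sperm.

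The lowest fitted value was that of Hist1h2bn, an H2B gene on chr13:21754123-21754503 (plus strand). Hist1h2bn is unique in only 27.7% of its stretches of read length, so its counts are uncertain. It had 15, 13 and 18 counts in MH5, MH6 and MH7 and 22, 26 and 38 in ML1, ML2 and ML3, so the groups did not overlap, with a log2 fold change of -0.93 (SE 0.54, adjusted p = 0.819 by edgeR). It was the single such member of 21 with HFD lower, against 6.18% of all genes. The testis variant Hist1h2aa came next with -0.76 (SE 0.69, adjusted p = 0.899), followed by Hist1h1a, which encodes H1.1, with -0.53 (SE 0.41, adjusted p = 0.871) and 58, 35 and 32 counts against 40, 70 and 68. The groups overlap in both.

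The largest values above 0 were those of Hist2h2be with 0.56 (SE 0.56, adjusted p = 0.915), Hist3h2a with 0.44 (SE 0.88, adjusted p = 0.961) and Hist1h3g, a histone H3 gene, with 0.40 (SE 0.64, adjusted p = 0.949). Hist2h2be had 25, 16 and 59 counts with HFD fathers and 24, 14 and 28 with LFD fathers, and without MH7 its value was -0.08. Hist3h2a had 1, 14 and 16 counts against 9, 10 and 3, and its value was 0.02 without MH7 and 0.95 without MH5. Hist1h3g had 36, 13 and 13 counts against 18, 18 and 11, and without MH5 its value was -0.33. All 3 overlap between the groups.

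Hist1h4d, the highest member by CPM though not per kilobase, had 335, 181 and 279 counts with HFD fathers and 371, 301 and 386 with LFD fathers. Its log2 fold change of -0.43 (SE 0.21, 95% interval -0.88 to 0.02) carried the smallest p of the 21 members (unadjusted p = 0.0606, adjusted p = 0.771, edgeR). MH5 lies within the LFD range, and MH6 and MH7 lie below it.

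MH5 and MH6, both from HFD fathers, lay at opposite ends for many members. After TMM scaling MH5 was the highest of the 6 libraries for 8 of the 21 members and MH6 the lowest for 9, whereas MH6 was the highest for 0. The same counts were not made over all genes tested, so these are not known to be particular to the members. Summed over all 67 members, MH5 had 219 nuclear CPM, MH6 116 and MH7 148, against 163 to 191 in the LFD libraries, so MH5 lay above and MH6 and MH7 below that range. Without MH5, 20 of 22 members tested were below 0 (49% of all genes), their median was -0.66 and 4 of them had an unadjusted p under 0.05 with HFD lower (4.01% of all genes), with 0 called. Without MH6, 11 of 24 were below 0 (48.8% of all genes) and the median was 0.04. The direction of the member median in morula thus differed with the HFD library left out.

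**Figure D5:**
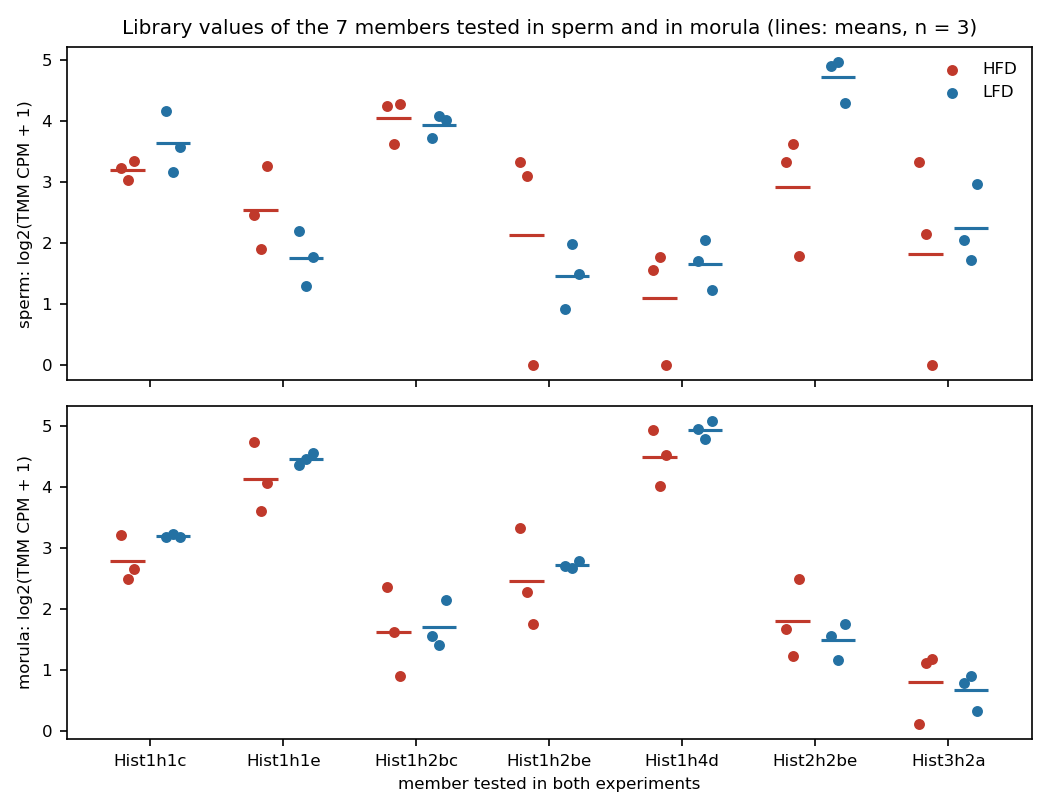
Log2 of TMM-scaled CPM plus 1 (vertical axis) in each library for the 7 members tested in both experiments (horizontal axis), in sperm (top) and morula (bottom), coloured by diet, with lines at the means of 3 libraries. Hist2h2be in sperm is the one case in which the diets separate.

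For the 7 members tested in both experiments, the diet difference in sperm was set against that in morula. For Hist2h2be the difference of mean log2(TMM CPM + 1) was -1.81 in sperm and 0.31 in morula, and sperm less morula was -2.12. A two-sided exact permutation test over the 400 ways to reassign diets inside each experiment gave p = 0.03, with an adjusted p of 0.21 over the 7 members (the smallest p possible is 0.005). This reassignment assumes no diet difference in either experiment, so the p does not test whether both differences are equal. The other 6 had p of 0.08 to 0.98 in that exact test. No member's difference between the experiments passed the threshold.

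Genes around the pathway were described from lists. Slbp, whose protein binds the stem-loop, had 1, 10 and 2 counts in h1, h3 and h4 and 9, 20 and 14 in l1, l2 and l4 and was not tested there. In morula it had 508 to 660 counts, with a log2 fold change of 0.11 (SE 0.13, adjusted p = 0.928, edgeR). Npat had 16, 40 and 1 counts on HFD and 76, 33 and 61 on LFD in sperm, with -0.41 (SE 0.85, adjusted p = 0.888), and 1017 to 1244 counts in morula, with -0.07 (SE 0.11, adjusted p = 0.942). H1f0, the H1.0 linker histone of non-dividing cells, which lies outside the clusters, gave -0.20 in sperm (SE 0.64, adjusted p = 0.929) and -0.09 in morula (SE 0.20, adjusted p = 0.969).

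Of the factors that make or degrade histone mRNA, 13 were tested in sperm (7 above and 6 below 0, median 0.07, 0 called) and 18 in morula (14 above and 4 below 0, median 0.10, 0 called, with 4 at an unadjusted p under 0.05, all above 0, beside 477 of 13447 genes above 0 at that p). The extremes were Tent4a at 0.97 and Ncbp2 at -1.13 in sperm, and Ints11 at 0.66 and Lsm11 at -0.57 in morula. Ints11 had 151, 144 and 287 counts with HFD fathers and 140, 113 and 106 with LFD fathers, with an adjusted p of 0.713 by edgeR. Its groups did not overlap, with HFD higher, which held for 4 of the 18 factors and 799 of 13447 genes. Without MH7 its log2 fold change was 0.32. Histone chaperones numbered 11 in sperm (2 above and 9 below 0, median -0.53) and 15 in morula (5 and 10, median -0.03), with Chaf1a and Hat1 as the extremes in sperm (0.68 and -1.01) and Hat1 and Npm2 in morula (0.09 and -0.89). S-phase genes numbered 9 in sperm (5 above and 4 below 0, median 0.08) and 23 in morula (12 and 11, median 0.01), with Mcm2 at 1.85 and Mcm6 at -1.77 in sperm, which encode subunits of the same helicase, and Cdk2 at 0.49 and Ccne1 at -0.17 in morula. No gene of these lists was called.

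Replacement histones, which are encoded outside the clusters and mostly not limited to S phase, were described in the same way. H2afz, encoding H2A.Z, had 927 to 1363 nuclear CPM in the morula libraries and 0.937 to 6.49 in the sperm libraries. H3f3b, encoding H3.3, had 217 to 284 in morula and 74.2 to 206 in sperm. Of 12 such genes listed in the tables, 6 were tested in sperm (2 above and 4 below 0, median -0.17) and 9 in morula (6 and 3, median 0.05), and 0 were called. H2afv and H2afx were the extremes in sperm (-2.02 and 0.27), and H3f3b and Cenpa in morula (-0.16 and 0.20). Of the germline histones outside the clusters only H1fnt and Hils1 were tested, in sperm, with 1.69 (SE 0.73, adjusted p = 0.342) and 0.93 (SE 0.91, adjusted p = 0.721), and all 7 that are listed had 0 counts in morula.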

How the data were processed

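Raw count tables of cauda spermatozoa and morulae were used. Per the study's methods, BBDuk trimming was followed by STAR alignment (GRCm38) and featureCounts; the authors deposited whole-number counts per gene, not normalized. Another 24 count columns, in the tables of other tissues, could not be tied to a sample or group by name and are not used here; those tables served for membership only. Round spermatids were therefore not compared. For 3 morula samples the description names the other diet; title and treatment were followed. Counts were fitted per experiment in R 4.3.3 using the quasi-likelihood test of edgeR 4.0.16 (TMM, filterByExpr at its minimum count, 10, without a block, Benjamini-Hochberg, threshold 0.05). DESeq2 1.42.0, limma-voom (limma 3.58.1), other scalings, no filter, a block and leaving out each library were alternatives. Scripts were tested on simulated data. Replicate libraries differed by more than sampling noise (chi-square per degree of freedom at least 18.9 in sperm and 8.19 in morula). Plots used matplotlib 3.10.9 (Python 3.11.15).

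Members and lists were chosen with earlier results of these data known. Named genes are the testis variants, the 3 largest values in each direction per comparison, the 5 highest members per tissue, list extremes, Slbp, Npat and H1f0; other members and H2afz, H3f3b, Hist2h4 and Trim17 were added after their values were seen. A marker gene of the leukocyte list is not reported here.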

Additional observations from a re-analysis of the deposited data

How the results depend on the processing

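In sperm, library totals called 2 members and 3266 of all genes, with a member median of -1.86. No filter called 41 of all genes and gave a median of -1.48, DESeq2 called 295, and an unadjusted p under 0.05 gave 1 member and 1122 genes. In morula no filter called 63 of all genes, DESeq2 18 and an unadjusted p 858. Leaving out single libraries called 0 members in both; all genes called were 0 in sperm and 0 to 2 in morula (2 without MH5), and the member median was -0.56 to 0.01 in sperm and -0.66 (without MH5) to 0.035 (without MH6) in morula. Summed member levels of 78.9 CPM in sperm and 133 in morula were 41.9 to 116 and 126 to 140 without single libraries, 254 and 176 nuclear CPM, and 104 in morula over members with a count in both tables. Signs turned under library totals for Hist1h2bc (-1.69), Hist1h1e (-0.78), Hist1h2be (-0.077), Hist3h2a (-1.86 from 0.0004), H2afx (-1.52), H1fnt (-0.10), Hils1 (-0.70), Tent4a (-0.96), Chaf1a (-0.99) and Mcm2 (-0.13), where the median of all genes was -1.82. They turned without the filter for Hist1h2bc (-0.063) and with limma-voom for H2afx (-0.044); Hist3h2a took either sign across settings. Without single libraries the range spanned 0 in sperm for Npat (-1.04 to 0.12), H1f0 (-0.74 to 0.24), H2afx (-0.87 to 0.64) and Chaf1a (-0.13 to 1.17), and in morula for Hist1h3g (-0.33 to 0.67), Hist2h2be (-0.075 to 0.88), Npat (-0.12 to 0.0041), H1f0 (-0.27 to 0.11) and Hat1 (-0.038 to 0.20). The cause was not tested. Of the 471 values of named genes under alternatives, 438 kept direction and call.

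Numbers 1 and 4 occur in both diets of the sperm columns, and nothing in the labels or methods pairs these libraries. Deviations of these pairs correlated at 0.11 and -0.15 across genes, which is too little to show whether they were paired. A replicate block called 2 of all genes and 0 members, with -2.23 for Hist2h2be and a member median of -0.62 (limma-voom -0.46). No paired analysis was possible for morula because the diets share no number. Comparisons with round spermatids were not run. In sperm 60 of 67 members did not pass the filter, of which 33 were at 0 and 24 of these had under 50% unique stretches; depth was not told apart from other limits.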
